A study of Mus musculus with 9 samples.

Results

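The mitochondrially encoded mRNAs and tRNAs are the genes whose symbol starts with mt- in the deposited table of liver expression, with the ribosomal RNAs mt-Rnr1 and mt-Rnr2 left out. This took 35 of the 51912 genes listed, of which 13 code for proteins and 22 are tRNAs. The 9 fasted mice whose livers were sequenced had the genotype Apoe-/-Ndst1 f/f Alb-Cre+ on a C57Bl/6 background. They lack apoE in every cell and Ndst1, a heparan sulfate sulfotransferase, in hepatocytes, since the albumin promoter drives Cre there. An antisense oligonucleotide (ASO) against apoC-III was given to 5 mice and a control ASO to 4, at 50 mg/kg/week for 8 weeks. Both groups therefore carry the same deletions, and no mouse with intact Apoe or without an ASO was analysed here. Neither sex nor age is given in the labels. Apoc3 mRNA was 86.5% lower in the apoC-III ASO group (p = 0.0159 in an exact permutation test, two-sided, and no smaller value is possible with 5 livers against 4).

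Mitochondrial DNA is a small circular genome, present in many copies per cell, that is transcribed from both strands into long precursors. The tRNAs lie between the mRNAs and rRNAs and are cut out by nuclear-encoded nucleases, which frees the mRNAs beside them. Every protein that the genome encodes is a subunit of the respiratory chain or of the ATP synthase, in the inner membrane. Liver is rich in mitochondria, where fatty acids are oxidised and ketone bodies made. In these genes 12 mRNAs read along the plus strand and mt-Nd6 alone reads along the minus strand, while 14 tRNAs lie on the plus strand and 8 on the minus strand.

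The tRNA sequences show how short these members are, from 59 to 75 bases. Sequences here are from GENCODE M21 (GRCm38), 5′ to 3′, with the anticodon in capitals, and 4 of 22 are shown. They are the tRNA at the start of the numbered genome, the longest, the methionine tRNA and the shortest, at chrM:1-68, chrM:2676-2750, chrM:3845-3913 and chrM:11613-11671, all on the plus strand.
mt-Tf: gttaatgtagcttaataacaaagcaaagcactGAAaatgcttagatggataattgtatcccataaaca
mt-Tl1: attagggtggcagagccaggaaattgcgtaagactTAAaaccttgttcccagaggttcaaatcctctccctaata
mt-Tm: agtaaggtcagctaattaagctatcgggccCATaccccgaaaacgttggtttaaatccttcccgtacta
mt-Ts2: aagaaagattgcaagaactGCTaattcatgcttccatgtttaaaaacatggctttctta

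All 22 tRNAs were listed at exactly 0 TPM (transcripts per 1000000, a scale corrected for length that sums to the same total in each liver) in all 9 livers. This covered both leucine tRNAs, mt-Tl1 and mt-Tl2, both serine tRNAs, mt-Ts1 and mt-Ts2, and mt-Tm, the only methionine tRNA. No tRNA could be tested, no share of a tRNA sum could be formed, and nothing is said here about tRNA levels in either group. The zeros were shared by every short gene. Of 1025 genes whose longest annotated transcript was no longer than the longest tRNA, 0 were above 0 TPM in any liver. The shortest gene above 0 was Rpl39-ps, at 151 bases, and all 5884 genes shorter than that were at 0, among them 1454 snoRNA genes, 2185 miRNA genes and 63 protein-coding genes. The share of genes above 0 then rose with length, from 2.78% at over 150 to 200 bases to 85.2% at over 2000 bases. RNA had been purified on RNeasy columns before the libraries were made, and the parts of RNA preparation, library and abundance estimation in these zeros were not tested.

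**Figure D1:**
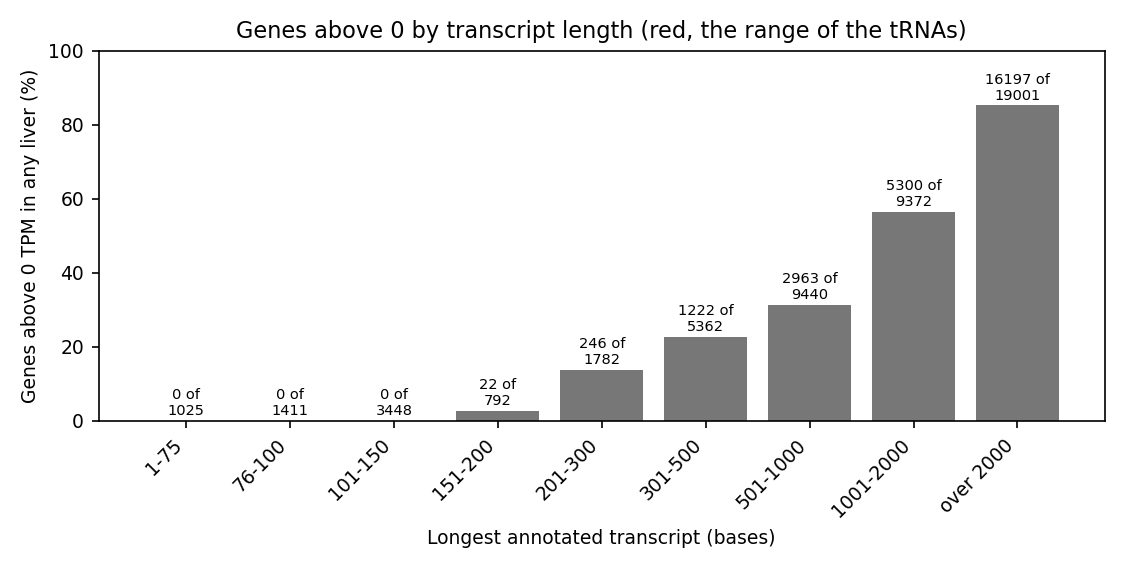
Percentage of genes above 0 TPM in any liver (vertical axis) by the length of their longest annotated transcript in bases (horizontal axis), with the number of genes over each bar. The 22 tRNAs fall in the red position at the left, where 0 of 1025 genes were above 0.

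All 13 mRNAs were above 0 in every liver, and the mean of each was lower with the apoC-III ASO than with the control ASO. Their summed level was 6429, 3468, 8067, 2858 and 2459 TPM in the apoC-III ASO livers, in the order of replicates 1 to 5, and 8250, 6252, 10055 and 11847 TPM in the control ASO livers, in the order of replicates 1 to 4. The 3 lowest livers were apoC-III ASO replicates 2, 4 and 5, and replicates 1 and 3 of that group lay among the controls. The group mean was 4656 ± 2462 TPM (SD, n = 5) with the apoC-III ASO and 9101 ± 2401 TPM (SD, n = 4) with the control ASO, a ratio of 0.512. The mRNAs thus made up 0.246% to 0.807% of the listed RNA in the apoC-III ASO livers and 0.625% to 1.18% in the controls. In whole-tissue RNA, fewer mitochondria or fewer cells of a type cannot be told apart from less RNA in each.

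None of the 13 mRNAs passed the test across all genes (limma-trend on log2(TPM + 1), Benjamini-Hochberg adjusted p under 0.05 and over 1.5-fold), which called 0.223% of the 4936 genes tested. Apoc3, the target of the ASO, was not called by this test either (log2 difference -2.62, SE 0.73, adjusted p = 0.10, limma). The groups overlapped for all 13, while 0.0405% of all genes tested lay wholly lower with the apoC-III ASO. Unadjusted limma p-values were under 0.05 for 4 of 13 mRNAs, all lower, against 0.972% of all genes tested that were lower at that level. The median log2 difference of the 13 was -1.10 against 0.11 over all genes tested. A lower mean was found for all 13 and for 29.2% of all genes tested. The 13 mRNAs are cut from shared precursors and were measured in the same 9 livers, so they are not 13 independent observations.

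The subunits of complex IV, cytochrome c oxidase, included the most abundant mRNA. mt-Co1, its catalytic subunit, lies at chrM:5328-6872 and was at 1587, 860, 1964, 732 and 602 TPM in the apoC-III ASO livers and at 2275, 1557, 2521 and 2930 TPM in the controls. Only control ASO replicate 2 lay within the range of the apoC-III ASO livers. The log2 difference was -1.13 (SE 0.51, unadjusted p = 0.028, adjusted p = 0.9997, limma). mt-Co2 (chrM:7013-7696), which takes electrons from cytochrome c, was at 998, 399, 1309, 341 and 189 TPM with the apoC-III ASO and at 710, 1066, 1835 and 1883 TPM with the control ASO. Its log2 difference was -1.32 (SE 0.58, unadjusted p = 0.024, adjusted p = 0.9997, limma), and apoC-III ASO replicates 1 and 3 lay above control ASO replicate 1. mt-Co3, the remaining mitochondrial subunit of the complex, was listed at 73.5 to 287 TPM and at 137 to 597 TPM, a ratio of means of 0.441.

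The ATP synthase mRNAs, mt-Atp8 and mt-Atp6, share a transcript and overlap by 43 bases. mt-Atp6 (chrM:7927-8607), part of the proton channel, was at 1019, 508, 1218, 394 and 364 TPM with the apoC-III ASO and at 1362, 911, 1509 and 2014 TPM with the control ASO. Its log2 difference was -1.17 (SE 0.57, unadjusted p = 0.040, adjusted p = 0.9997, limma), with control ASO replicate 2 inside the range of the other group. mt-Atp8, a small subunit of the same membrane part, ran from 137 to 340 TPM and from 252 to 460 TPM, and its log2 difference of -0.77 (SE 0.69) was smaller than that of mt-Atp6 but was not tested against it. mt-Atp8 is printed with the bases it shares with mt-Atp6 in capitals, since reads inside that stretch fit both genes (chrM:7766-7969, plus strand).
mt-Atp8: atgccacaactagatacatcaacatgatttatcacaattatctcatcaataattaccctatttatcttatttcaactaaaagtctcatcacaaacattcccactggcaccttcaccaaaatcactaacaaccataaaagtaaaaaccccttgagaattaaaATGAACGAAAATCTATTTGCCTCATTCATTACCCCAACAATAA

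mt-Cytb encodes cytochrome b, the mitochondrial subunit of complex III, at chrM:14145-15288. It was at 591, 338, 745, 261 and 227 TPM with the apoC-III ASO and at 894, 522, 922 and 1348 TPM with the control ASO. As for mt-Co1, control ASO replicate 2 alone lay within the range of the apoC-III ASO livers, and the log2 difference was -1.17 (SE 0.62, unadjusted p = 0.059, limma).

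Complex I, NADH dehydrogenase, takes 7 of the 13. mt-Nd1, mt-Nd2, mt-Nd4 and mt-Nd5, which form much of its membrane arm, had ratios of means of 0.502, 0.515, 0.508 and 0.505. Their ranges were 144 to 509, 109 to 268, 102 to 272 and 73.1 to 175 TPM with the apoC-III ASO, and 343 to 779, 220 to 367, 220 to 404 and 153 to 303 TPM with the control ASO. The remaining complex I mRNAs departed from this ratio in both directions, and the differences between genes were not tested. mt-Nd3, a small membrane subunit, was at 117, 66.4, 189, 44.5 and 26.8 TPM with the apoC-III ASO and at 163, 203, 210 and 554 TPM with the control ASO, with the lowest ratio of means, 0.314. Its log2 difference was -1.80 (SE 0.72, unadjusted p = 0.013, adjusted p = 0.9997, limma). mt-Nd6 (chrM:13552-14070), the only mRNA from the other strand, had the highest ratio, 0.926, and its last bases overlap mt-Nd5 by 14 on the opposite strand. It was at 95.5, 67.4, 99.1, 103 and 65.0 TPM with the apoC-III ASO and at 118, 81.1, 117 and 54.8 TPM with the control ASO, and the lowest liver was a control. mt-Nd4l (chrM:9877-10173), another small membrane subunit, was at 623, 411, 692, 274 and 332 TPM with the apoC-III ASO and at 717, 558, 744 and 171 TPM with the control ASO, where control ASO replicate 4 was the lowest of all 9 livers. mt-Nd4l overlaps mt-Nd4 by 7 bases on the same strand. Its level was 2.40 to 3.26 times that of mt-Nd4 with the apoC-III ASO. In control ASO replicates 1 to 3 this ratio was 1.78, 2.54 and 2.12, and in replicate 4 it was 0.440, where a nuclear copy described further on was also listed. The log2 differences of mt-Nd6 and mt-Nd4l were -0.07 (SE 0.73) and -0.12 (SE 0.64), and both turned positive when libraries were scaled to nuclear protein-coding RNA (0.07 and 0.02).

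**Figure D2:**
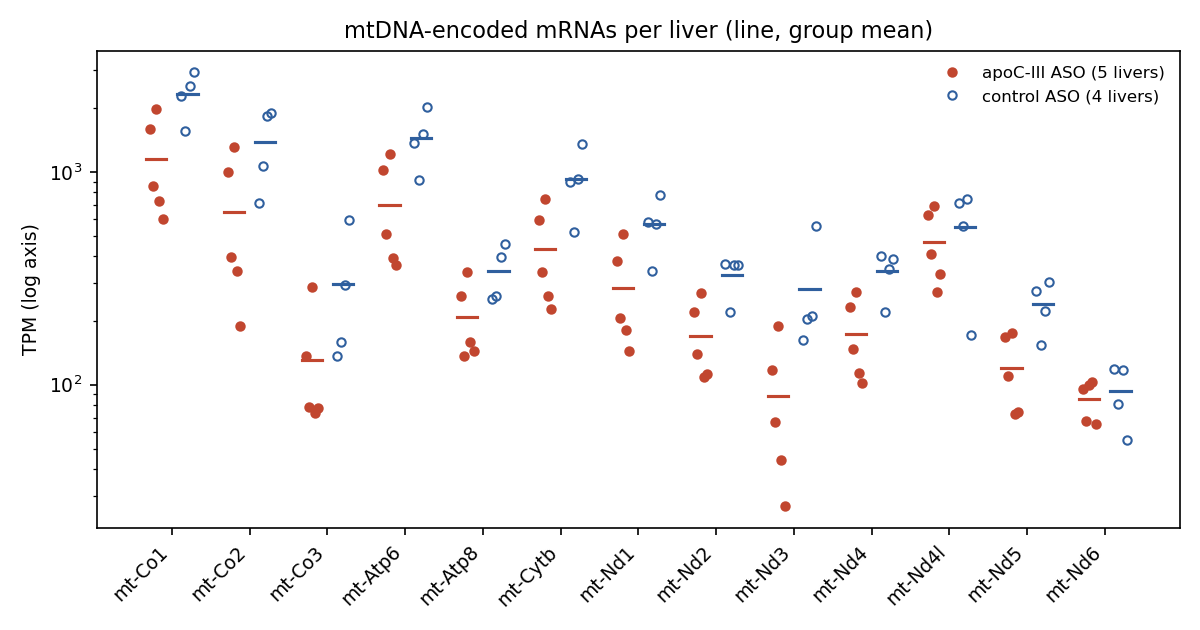
TPM of the 13 mRNAs on a log axis, with 1 point per liver (filled, 5 apoC-III ASO; open, 4 control ASO) and a line at each group mean. The means are lower with the apoC-III ASO for all 13, from a ratio of 0.314 for mt-Nd3 to 0.926 for mt-Nd6, and the points of the groups overlap in every case.

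A per-gene exact permutation test on the same log2 values, which takes no spread from other genes, gave unadjusted p-values under 0.05 for 6 of 13 mRNAs. These exact p-values were 0.0317 for mt-Nd2 and mt-Nd3 and 0.0476 for mt-Co1, mt-Nd4, mt-Nd5 and mt-Cytb, and after adjustment over all genes tested every one was at 1. That test called 0 of 4936 genes and gave 33 an unadjusted p under 0.05, whereas limma-trend gave 99.

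Taken as shares of the mRNA sum, mt-Co1, mt-Atp6, mt-Cytb and mt-Nd1 varied little between livers. The shares of mt-Co2, mt-Co3, mt-Nd3, mt-Nd4l and mt-Nd6 varied more, relative to their size. mt-Co1 ranked first in 9 of 9 livers and held 24.3% to 25.6% of the sum with the apoC-III ASO and 24.7% to 27.6% with the control ASO. mt-Atp6 ranked between 2 and 3, at 14.8% ± 0.75 (SD, n = 5) and 15.8% ± 1.17 (SD, n = 4). mt-Cytb held 9.14% to 9.74% and 8.35% to 11.4%, and mt-Nd1 held 5.87% to 6.34% and 5.48% to 7.01%. Between those, mt-Co2 varied far more within each group, from 7.67% in apoC-III ASO replicate 5 to 16.2% in replicate 3 and from 8.61% in control ASO replicate 1 to 18.3% in replicate 3. TPM is corrected for length, but these orders compare listed levels, which also depend on the nuclear copies described further on. mt-Atp6 was listed at 2.49 to 5.41 times mt-Atp8, though the 2 share a transcript. Only 13.8% of genes of over 200 to 300 bases were above 0 TPM in any liver. A remaining effect of length on the shortest mRNAs was not tested.

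The shares were tested by dividing every library by its mRNA sum before the same limma fit. None of the 13 shares was called, against 0.365% of all 4936 genes so scaled. Of the 13, 6 were higher and 7 lower with the apoC-III ASO, a balance that dividing by their own sum largely sets, whereas other genes are not centred by it. The groups overlapped for all 13 shares (3.67% of all genes did not overlap), and 0 of 13 had an unadjusted limma p under 0.05 (15.8% of all genes). The same division put 4853 of the 4936 genes higher with the apoC-III ASO, at a median log2 difference of 0.76. These percentages over all genes are therefore no baseline for the 13. The mt-Nd6 share was 1.49%, 1.94%, 1.23%, 3.61% and 2.64% in the apoC-III ASO livers and 1.43%, 1.30%, 1.17% and 0.463% in the controls. It lay above every control in 4 of 5 apoC-III ASO livers, and apoC-III ASO replicates 4 and 5 had the highest shares and the lowest summed mRNA. The log2 difference was 1.0 (SE 0.88, adjusted p = 0.31, limma), and the exact permutation test gave p = 0.0635 (0.27 adjusted over all genes). The mt-Nd4l share was 9.69%, 11.9%, 8.58%, 9.57% and 13.5% against 8.69%, 8.93%, 7.40% and 1.44%, a log2 difference of 0.96 (SE 0.78, adjusted p = 0.28, limma; exact permutation p = 0.0476, 0.27 adjusted over all genes). Without control ASO replicate 4 the log2 difference was 0.64 for mt-Nd6 and 0.34 for mt-Nd4l. The mt-Nd3 share was 1.82%, 1.92%, 2.34%, 1.56% and 1.09% against 1.97%, 3.25%, 2.09% and 4.68%, a log2 difference of -0.73 (SE 0.88). For the other 10 mRNAs the log2 difference lay between -0.24 (mt-Co2) and 0.31 (mt-Atp8). These standard errors come from the trend across all genes and were wider than the spread of several shares, such as mt-Co1 at 24.8% ± 0.50 (SD, n = 5) and 25.6% ± 1.34 (SD, n = 4).

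**Figure D3:**
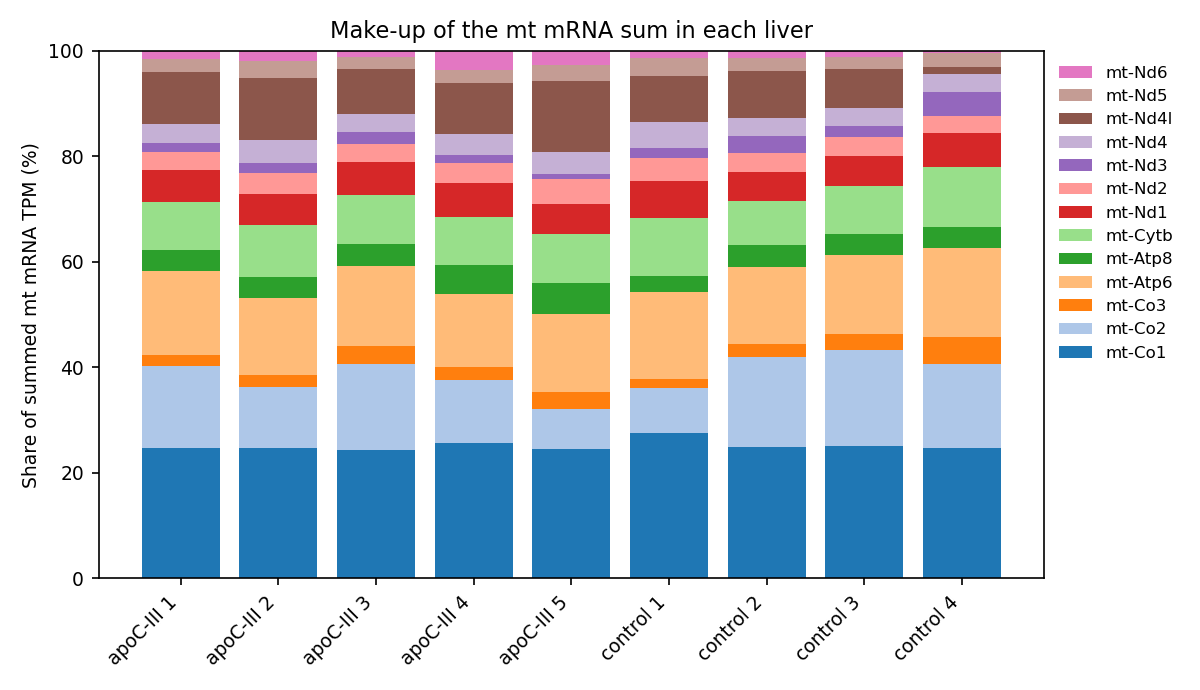
Share of each mRNA in the summed TPM of the 13 (vertical axis, percent) for each liver (horizontal axis, group and replicate). mt-Co1 at the base holds 24.3% to 27.6% in all livers, and control 4 has the narrowest band of mt-Nd4l, 1.44%.

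Mouse chromosome 1 carries a nuclear copy of part of the mitochondrial genome, and the annotation lists it as 7 separate unprocessed pseudogenes. They lie side by side on the minus strand at chr1:24611535-24616197 (GRCm38), each in the same orientation as its mitochondrial counterpart. Gm28439 matched the first 876 bases of mt-Nd4 with 0 mismatches. Gm10222 (294 bases, mt-Nd4l), Gm28437 (783 bases, mt-Co3), Gm10925 (678 bases, mt-Atp6) and Gm28661 (681 bases, mt-Co2) also had no mismatch. Gm29216 matched the last 483 bases of mt-Co1 at 99.8%, and over its whole 492 bases it had 6 mismatches (98.8%). Gm28438 differs from mt-Nd3 by 1 base in 345, the substitution T3C, counted from the 5′ end of mt-Nd3 with the mitochondrial base first. The first 150 bases of both are printed with that base in capitals, because mt-Nd3 had the largest group difference and nearly all of its sequence is shared.
mt-Nd3: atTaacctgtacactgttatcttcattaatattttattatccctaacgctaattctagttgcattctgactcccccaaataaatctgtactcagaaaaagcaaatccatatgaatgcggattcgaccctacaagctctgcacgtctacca
Gm28438: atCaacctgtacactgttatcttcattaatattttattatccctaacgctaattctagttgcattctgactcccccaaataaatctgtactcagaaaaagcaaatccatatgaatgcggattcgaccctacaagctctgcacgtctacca

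The whole genes, at chrM:9459-9806 and chr1:24612775-24613119, differ also in length, since the annotated copy ends before the stop codon. A read from elsewhere in either one fits both, so the deposited value of such a gene depends on how the estimate divided shared reads. In terms of the level of gene and copy together, with copies weighted by length, most of mt-Co3 was listed under Gm28437, 87.6% to 92.7% in the apoC-III ASO livers and 86.6% to 94.9% in the controls. For mt-Nd3, Gm28438 held 86.8% to 94.2% and 83.7% to 88.7% of the combined level. For mt-Co1 the copies held 26.5% to 38.9% and 26.7% to 55.3%, the last in control ASO replicate 4. For mt-Co2 the copies' share ran from 11.5% to 45.9% and from 8.74% to 57.5%, whereas Gm10925, the exact copy of mt-Atp6, was at or within rounding of 0 in all livers. The division also differed between livers. Gm10222 was at 0 in 8 livers and at 701 TPM in control ASO replicate 4, the liver in which mt-Nd4l stood at 171 TPM, and with the copy added mt-Nd4l was there at 865 TPM, the highest of the 9. Gm10222 was one of the 11 genes called of all genes (limma, adjusted p = 1.8e-07), on the strength of that single liver. The remaining mRNAs, mt-Nd1, mt-Nd2, mt-Nd5, mt-Nd6, mt-Cytb and mt-Atp8, had no match of at least 100 bases among the 7 pseudogenes, although the 43 bases that mt-Atp8 shares with mt-Atp6 recur in Gm10925. Copies elsewhere numbered 4, with a mean of at most 0.780 TPM.

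**Figure D4:**
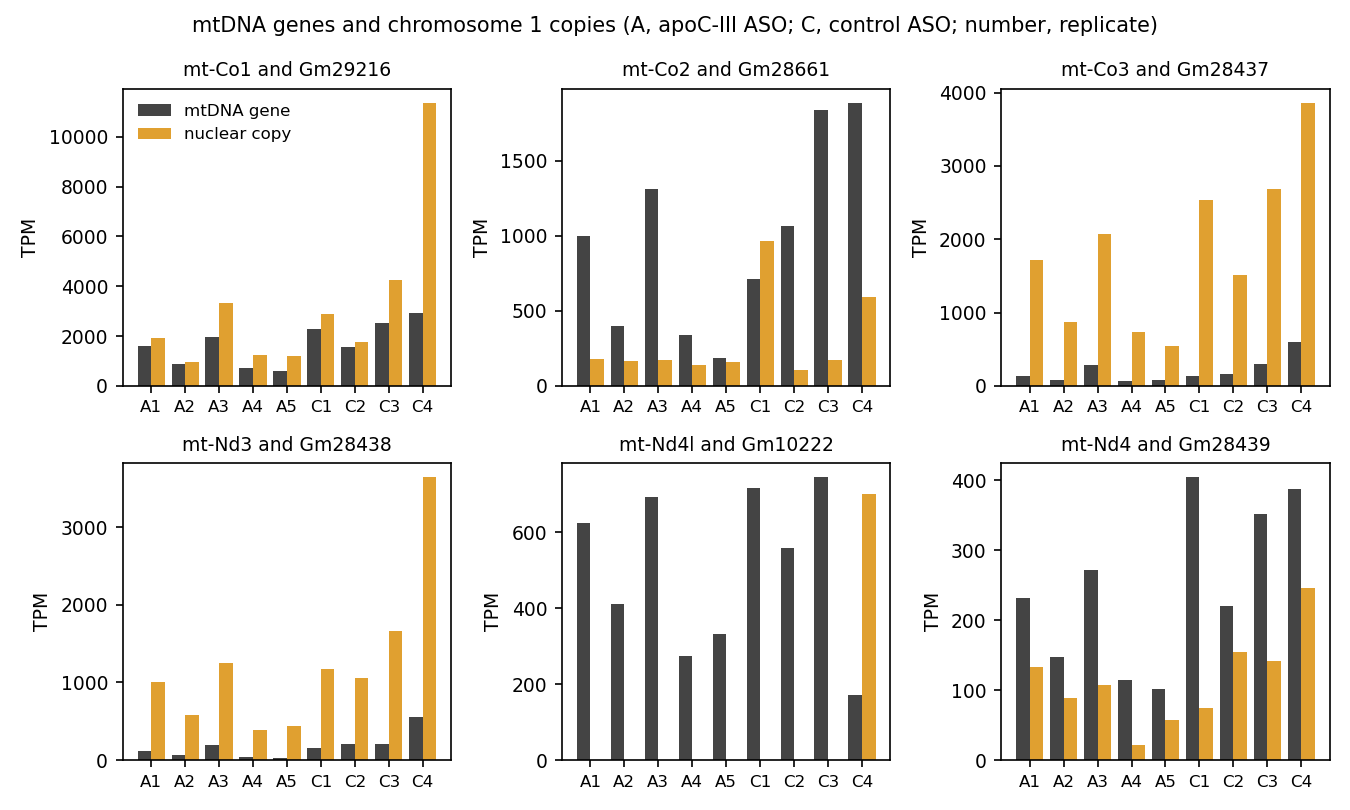
TPM of 6 mitochondrial genes (grey) and of their copies on chromosome 1 (orange) in each liver, with the vertical scale set for each panel. In TPM, not weighted by length, the copy exceeds the mitochondrial gene in all livers for mt-Co1, mt-Co3 and mt-Nd3. The mt-Co1 copy has 492 bases against 1545. Weighted by length, copies held 26.5% to 38.9% of mt-Co1 with the apoC-III ASO and 26.7% to 55.3% with the control ASO. Gm10222 is above 0 only in C4, control ASO replicate 4, at 701 TPM.

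With each copy's level added to its member in proportion to length, the group difference stayed in the same direction for all 13. The summed level was then 10017, 5446, 12677, 4528 and 4027 TPM with the apoC-III ASO and 13879, 9579, 15999 and 24363 TPM with the control ASO, a ratio of means of 0.460. The copies made up 35.8% to 38.9% of this sum in the apoC-III ASO livers, 51.4% in control ASO replicate 4, and 34.7% to 40.6% in the other controls. Still 0 of 13 mRNAs were called, beside 9 of the 4930 genes tested in this fit. An unadjusted limma p under 0.05 was found for 5 of the 13, all lower, and for 96 of the 4930 genes, 45 of them lower. The mt-Nd3 difference went from -1.80 to -1.37, close to mt-Co2 at -1.34, and its share from -0.73 to -0.18. The mt-Nd4l share went from 0.96 to 0.49, while mt-Nd6, which has no such copy, remained the highest at 1.10 (SE 0.94, limma).

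The level relative to other RNA depended on the denominator and on 1 control. Most of each library was non-coding RNA, with the nuclear 7SL RNA at 64.0% to 83.6% of TPM and the mitochondrial rRNAs at 8.43% to 27.7%, so nuclear protein-coding genes held 1.94% to 8.64%. Per TPM of nuclear protein-coding RNA, the mt mRNA sum was 0.121, 0.0754, 0.203, 0.0559 and 0.0810 with the apoC-III ASO and 0.0954, 0.115, 0.178 and 0.610 with the control ASO. Control ASO replicate 4 stood apart, with the smallest nuclear protein-coding sum of the 9 livers and with the lowest summed markers of the controls for 6 cell types. These were hepatocytes (381 TPM, where other controls reached 3017 TPM and the apoC-III ASO group spanned 1072 to 3790 TPM), macrophages (0.628 TPM), leukocytes (0.426 TPM), endothelial cells (0.615 TPM), stellate cells (2.20 TPM) and cholangiocytes (1.15 TPM). Its erythroid marker sum, 21.0 TPM, was the highest of the controls, against 3.29 to 49.1 TPM in the apoC-III ASO livers. The marker sums were not scaled to the nuclear protein-coding sum, 19425 TPM in this liver and 54239 to 86448 TPM in the other controls. The 6 low marker sums are therefore not independent of that sum. The part of these differences in the mt mRNA level of this liver was not tested. The ratio of means was 0.429 with this liver and 0.827 without it, and without it the remaining 3 controls lay inside the range of the apoC-III ASO livers. On the deposited TPM scale the ratio without that liver was 0.569, beside 0.671 for the nuclear protein-coding sum in the same livers. Brown fat markers Ucp1 and Cidea were at 0 in all livers and the summed muscle markers at no more than 0.109 TPM.

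Against the mitochondrial rRNAs, which come from the same genome, the mRNA sum was 2.32%, 1.77%, 4.26%, 3.39% and 1.83% with the apoC-III ASO and 4.76%, 2.44%, 5.12% and 7.21% with the control ASO. Control ASO replicate 2 lay among the apoC-III ASO livers and the other controls above them, a ratio of means of 0.556 with all controls and 0.661 without control ASO replicate 4. The libraries had been depleted of rRNA, so the rRNA level is what depletion left, and its part in this ratio was not tested.

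**Figure D5:**
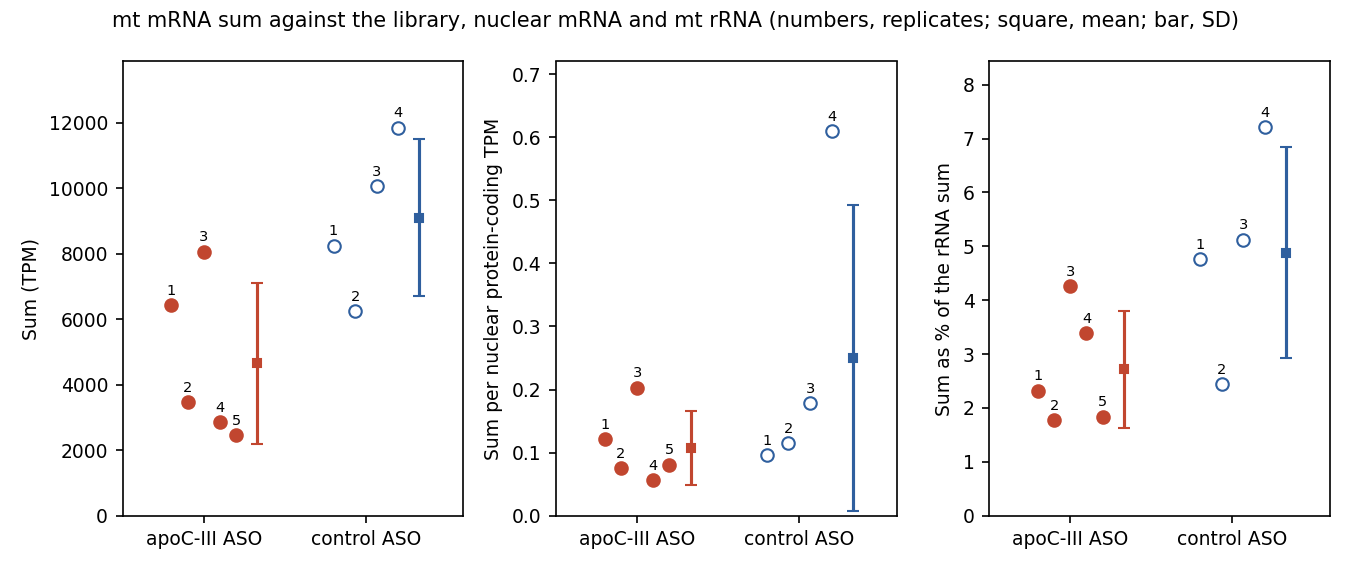
Summed mt mRNA per liver in TPM (left), per TPM of nuclear protein-coding genes (middle) and as a percentage of the 2 mitochondrial rRNAs (right), with replicate numbers over the points and squares with bars for mean and SD. Control ASO replicate 4 lies at 0.610 in the middle panel, where the other 8 livers lie at or below 0.203.

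The nuclear genes that make and process these RNAs were followed as a list of 84, covering transcription, RNA processing and stability, tRNA maturation and charging, and translation. Most were near the floor of the table, and 30 reached a mean of 1 TPM. Of these, 17 were higher and 13 lower with the apoC-III ASO, 0 were called and 0 had an unadjusted limma p under 0.05, against 2.01% of all genes tested. The median log2 difference was 0.07, beside 0.11 over all genes tested. Polrmt, the mitochondrial RNA polymerase, was at 1.98, 2.08, 1.79, 1.01 and 1.09 TPM with the apoC-III ASO and at 1.55, 1.62, 1.24 and 0.135 TPM with the control ASO, a log2 difference of 0.33 (SE 0.38). Tfam, which packages mitochondrial DNA and starts its transcription, differed by 0.08 (SE 0.35). Lrpprc and Slirp, partners that stabilise the mitochondrial mRNAs, differed by -0.13 (SE 0.49) and -0.04 (SE 0.36). Hsd17b10, a subunit of the nuclease that cuts the 5′ end of the tRNAs, differed by 0.30 (SE 0.48), and its direction, like those of Tfam, Lrpprc and Slirp, changed with the scaling, the fit or the livers kept. Tfb2m, a transcription factor of mitochondria, Elac2, the nuclease for the 3′ end of the tRNAs, and Trmt10c, another subunit of the 5′ nuclease, had means of 0.865, 0.630 and 0.270 TPM and were not tested.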

How the data were processed

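Total RNA of 9 livers had been sequenced as ribosome-depleted stranded single-end libraries. The authors deposited gene TPM, which the submitters' notes trace to kallisto 0.43.1 and GRCm38. The study's methods describe STAR, featureCounts and DESeq2 instead, and those counts were not used here. Read depth is unknown, so no counting interval is given. No other scaling was applied in the main comparison: log2(TPM + 1) was compared for the 4936 genes averaging 1 TPM or more with limma 3.58.1 (trend, R 4.3.3) over 5 apoC-III ASO and 4 control ASO livers, with Benjamini-Hochberg adjustment. The prior degrees of freedom were infinite, so standard errors came from the trend across genes. Coordinates and transcripts were from GENCODE M21, copies were found with blastn 2.17.0 (at least 100 bases at 95%), and their TPM was added by copy length over member length. The text names all members, their copies, and set machinery genes. Members and lists were chosen with earlier results of these data known. Labels do not say whether mice came from separate litters or cages, and 1 liver is 1 mouse.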

Additional observations from a re-analysis of the deposited data

Results flagged for a closer look

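In 62 groups of 4 or 5 livers (the TPM and the share of each mRNA, and 5 measures of the summed mRNA), 7 had a liver whose gap to its nearest neighbour was large against the whole range of its group by Dixon's 95% limit. Chance alone flags about 1 group in 20, and the measures are not independent. 3 of the 7 were control ASO replicate 4. It held 554 TPM of mt-Nd3 against 163 to 210 TPM in the other controls, and its mRNA sum was 0.610 per TPM of nuclear protein-coding RNA against 0.0954 to 0.178. Divided by median-of-ratios factors, its mRNA sum was 54668 against 4519 to 8556. Control ASO replicate 2 had the lowest mt-Nd2, 220 TPM against 364 to 367 TPM. Control ASO replicate 1 had shares of 27.6% for mt-Co1, against 24.7% to 25.1%, and 4.89% for mt-Nd4, against 3.27% to 3.52%. In apoC-III ASO replicate 2, mt-Cytb held 9.74% of the mRNA sum against 9.14% to 9.24% in the rest of its group.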

How the results depend on the processing

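None of the 13 mRNAs was called in any of 28 alternative settings, nor any share in 19, and 16 of the 28 had all 13 lower with the apoC-III ASO. Over all genes tested, 1443 of 4936 were lower in the main comparison and 389 of 4936 without 7SL and mt rRNA in the total. With array weights 3468 of 4936 were lower, and without control ASO replicate 4 it was 4414 of 5269. In both of these last settings most genes were lower, and so were all 13 mRNAs. Of the 13, the number lower ran from 11 to 13 and the median log2 difference from -1.43 to -0.39. The latter was without control ASO replicate 4 and with nuclear protein-coding scaling, chosen after seeing the data, as were all settings that add nuclear copies and the exact permutation test. In that setting the log2 difference of the summed mRNA moved to -0.37, and the cause was not tested. With the trend left out, 10 of 13 had an unadjusted limma p under 0.05, beside 76 of 4936 genes tested. Leaving out 1 liver at a time took the count of the 13 at that level from 0 to 5, and it was 0 without apoC-III ASO replicate 5. The same fits put 79 of 4925 genes tested at that level without control ASO replicate 3, the fewest. The most were 288 of 5269, without control ASO replicate 4.

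The 11 genes called of all genes became 4 with a pseudocount of 0.1, 7 with 0.5, 0 with no filter on low values, a minimum of 5 TPM, no trend or the exact test, 2 with robust moderation or median-of-ratios scaling (2 also with copies added), and 4 with quantile or nuclear protein-coding scaling (4 also with copies added). It was 1 without 7SL and mt rRNA in the total, and from 4 to 17 with 1 liver left out. Without control ASO replicate 4 it was 4, 4 with copies added, 3 with median-of-ratios and 3 with nuclear protein-coding scaling. With the replicate number as a block it was 26, and 1 with median-of-ratios factors also applied. The labels do not say that numbers pair mice, same-numbered livers correlated at 0.02 to 0.13 in their deviations, and only control ASO replicate 3 correlated best with its own number. No mt mRNA was called with the block.

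Some directions turned. The log2 difference of mt-Nd4l became 0.15 with quantile normalization, 0.023 with nuclear protein-coding scaling and 0.17 without 7SL and mt rRNA, and ranged from -0.61 to 0.10 with 1 liver left out. That of mt-Nd6 became 0.067 with nuclear protein-coding scaling (0.067 with copies added), 0.22 without 7SL and mt rRNA and 0.022 with the replicate block. Without control ASO replicate 4 it was 0.043 with median-of-ratios and 0.26 with nuclear protein-coding scaling, and with 1 liver left out it ran from -0.30 to 0.066. Tfam became -0.018 with median-of-ratios (-0.018 with copies added), -0.029 with quantile normalization and -0.15 without control ASO replicate 4 with copies added, and ran from -0.15 to 0.22 with 1 liver left out. Lrpprc became 0.041 with nuclear protein-coding scaling (0.041 with copies added), 0.12 without 7SL and mt rRNA and 0.047 with the block, and ran from -0.59 to 0.12. Slirp became 0.071 without 7SL and mt rRNA, 0.17 with the block, and, without control ASO replicate 4, 0.040 with median-of-ratios and 0.16 with nuclear protein-coding scaling, and ran from -0.28 to 0.17. Hsd17b10 became -0.060 with array weights, -0.0099 with the block and median-of-ratios, and -0.027 without control ASO replicate 4 with copies added, and ran from -0.027 to 0.47. As shares, 9 of 13 mRNAs turned in 1 to 4 of 19 settings, and mt-Atp8, mt-Nd3, mt-Nd4l and mt-Nd6 did not. The widest was mt-Co3, -0.065 in the main comparison and from -0.32 to 0.43 over the settings, which turned in 3. mt-Nd1 and mt-Nd2 turned in 4 each (-0.11 to 0.089 and -0.058 to 0.17), mt-Nd5 in 3 (-0.084 to 0.16), mt-Nd4 in 2 (-0.16 to 0.17) and mt-Cytb in 2 (-0.16 to 0.023). mt-Atp6 and mt-Co1 turned in 1 each (up to 0.019 and 0.011), and mt-Co2 in 1, to 0.012 with array weights. No alternative could be computed for the tRNAs as shares, since their sum was 0.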
